A study of Mus musculus with 24 samples.

Results

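The genes described here are 38 genes of the hepatic stellate cell and of liver fibrosis: collagens, other matrix proteins, enzymes that crosslink or degrade matrix, transforming growth factor beta (TGF-beta) and its receptors, and genes that mark stellate cells. They were listed by name, with earlier results of these data known. A gene was kept where a probe set of the array carries its symbol alone, which held for 37 of the 38, each with 1 probe set, among 19938 genes on 35556 probe sets. *Loxl2* was left out, as its probe set carries several symbols. The livers of 24 male mice were profiled with the Affymetrix Mouse Gene ST array, 1 array per mouse, in 4 groups of 6: *Ogg1*-/- mice on a high-fat diet (HFD), wild-type (WT) mice on the HFD, *Ogg1*-/- mice on chow and WT mice on chow. All mice had a C57BL6 background, were housed singly and had free access to their diet for 10 weeks, starting at 10 weeks of age in the labels (the methods give another age). *Ogg1* encodes a DNA glycosylase that removes oxidized guanine, and the knockout lacks it in all cell types, not in stellate cells alone. All values are log2 signals, so that a difference of 1 is a doubling of signal. Levels are compared between livers for the same gene, never between genes.

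Stellate cells lie between hepatocytes and the endothelium of the liver sinusoids, where they store vitamin A as retinyl esters in lipid droplets. In injured liver they are activated by TGF-beta and platelet-derived growth factor (PDGF), lose their retinoid stores, gain smooth muscle actin and secrete fibrillar collagen together with enzymes that crosslink it and inhibitors that slow its breakdown. Several of the 37 genes are also used by other liver cells: hepatocytes make plasma fibronectin, sinusoidal endothelial cells and leukocytes contain vimentin, and vascular smooth muscle contains smooth muscle actin and desmin. The tissue is whole liver, so fewer cells of a type and less RNA per cell cannot be told apart.

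The targeted gene followed the labels. *Ogg1* had a log2 signal of 5.87 ± 0.13 in HFD-fed *Ogg1*-/- livers against 6.46 ± 0.08 in HFD-fed WT livers, and of 5.93 ± 0.06 in chow-fed *Ogg1*-/- livers against 6.47 ± 0.11 in chow-fed WT livers (SD, n = 6 each; limma, adjusted p = 2.9e-05 on the HFD and 3.2e-05 on chow). Livers also differed along a common axis, the first principal component of the residuals of the 12 chow arrays, which took 40.2% of the variation inside the chow groups. Scores on this axis were 18.5 to 54.8 in HFD-fed *Ogg1*-/- livers, -20.7 to 10.4 in HFD-fed WT livers, -42.1 to 80.9 in chow-fed *Ogg1*-/- livers and -46.1 to -6.51 in chow-fed WT livers. Thus, on the HFD the score separated the genotypes without overlap. Replicate 1 of the chow-fed *Ogg1*-/- livers contributed 59.2% of the axis and stood farthest from its group. Sample codes ending in "fr" were carried by all 6 chow-fed WT livers, 1 HFD-fed WT liver (replicate 5) and 0 *Ogg1*-/- livers, and on chow this ending cannot be told apart from genotype.

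On the HFD, 7 of the 37 genes differed between *Ogg1*-/- and WT livers (18.9%), 1 higher and 6 lower, by limma with Benjamini-Hochberg adjustment over all 35556 probe sets at an adjusted p under 0.05. Over all probe sets, the same test passed 19.8%, with 10.3% higher and 9.55% lower, so the share among these genes was near that over all probe sets. Lower genes were the retinoid-storing enzyme *Lrat*, the growth factor *Hgf*, the proteoglycan *Dcn*, the type I TGF-beta receptor *Tgfbr1*, the intermediate filament *Vim* and the PDGF receptor *Pdgfra*, by 1.29-fold to 1.95-fold. The ligand *Tgfb1* was 1.37-fold higher. None of the 11 collagen genes passed the test. When a fold of at least 1.5 was required as well, *Lrat*, *Dcn*, *Vim* and *Tgfbr1* passed, beside 5.89% of all probe sets. With probe sets of below-median mean signal left out, 10 of 34 genes passed, beside 43% of the 17778 probe sets kept. With the mean over probe sets of each gene, 8 of the 37 passed, beside 26.1% of 19938 genes. Against these 2 backgrounds the share among the 37 genes was the lower one. With the axis score as a covariate, 0 of the 37 genes passed, beside 2.71% of all probe sets, and the part of the axis in these differences was not tested further.

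**Figure D1:**
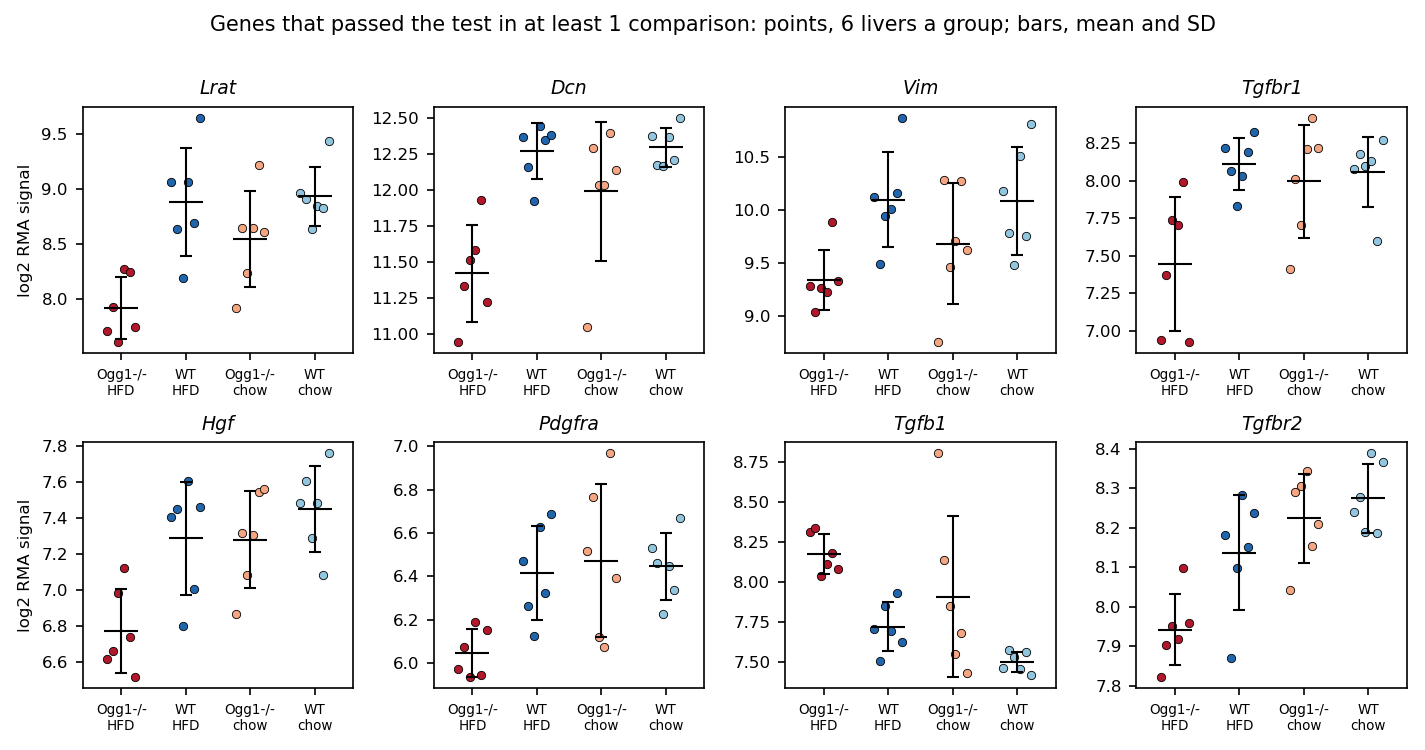
Log2 RMA signal (vertical axes) of the 8 genes that passed the test in at least 1 comparison, in each of the 6 livers of each group (points, groups along the horizontal axes), with mean and SD (bars). *Tgfb1* is the gene whose HFD-fed *Ogg1*-/- livers (8.04 to 8.34) all lie above the HFD-fed WT livers (7.50 to 7.93).

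*Lrat* encodes lecithin retinol acyltransferase, which esterifies retinol for storage in stellate cells. Its log2 signal was 7.61 at the lowest, 7.84 at the median and 8.27 at the highest in HFD-fed *Ogg1*-/- livers, against 8.19, 8.87 and 9.64 in HFD-fed WT livers. It was therefore 1.95-fold lower (log2 difference -0.96, SE 0.21, limma, adjusted p = 0.0041), with an overlap at the lowest WT liver. *Hgf*, which encodes a growth factor for hepatocytes made by stellate and endothelial cells, had 6.52, 6.70 and 7.12 in HFD-fed *Ogg1*-/- livers against 6.80, 7.43 and 7.61 in HFD-fed WT livers (log2 difference -0.52, SE 0.15, adjusted p = 0.0164). Both genes had their highest HFD value in WT livers, and both groups overlapped. Of the 37 genes, *Reln* and *Ngfr* are also stellate cell markers and did not pass. *Reln*, a secreted glycoprotein, differed by -0.25 (SE 0.10, adjusted p = 0.0843), and *Ngfr*, a neurotrophin receptor, by 0.11 (adjusted p = 0.417).

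*Dcn* encodes decorin, a small proteoglycan that binds collagen fibrils and TGF-beta. It had log2 signals of 10.95, 11.42 and 11.93 in HFD-fed *Ogg1*-/- livers against 11.93, 12.36 and 12.45 in HFD-fed WT livers (log2 difference -0.85, SE 0.17, adjusted p = 0.00319). The groups touched at 1 liver each, where the highest *Ogg1*-/- liver (replicate 5) lay just above the lowest WT liver (replicate 3). The other proteoglycans did not follow it: *Lum* (lumican) differed by -0.25 (adjusted p = 0.252) and *Bgn* (biglycan) by 0.06 (adjusted p = 0.729). The difference between these proteoglycans was not tested.

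Of the TGF-beta genes, the ligand and a receptor moved in opposite directions. *Tgfb1* had 8.04, 8.15 and 8.34 in HFD-fed *Ogg1*-/- livers against 7.50, 7.70 and 7.93 in HFD-fed WT livers (log2 difference 0.46, SE 0.15, adjusted p = 0.0349). It was the 1 gene of the 37 with no overlap on this diet; of all probe sets, 12.1% did not overlap on this diet, and 6.08% did not overlap and were higher in *Ogg1*-/- livers. *Tgfbr1*, the signalling receptor kinase, had 6.93, 7.54 and 7.99 in HFD-fed *Ogg1*-/- livers against 7.83, 8.13 and 8.32 in HFD-fed WT livers (log2 difference -0.66, SE 0.18, adjusted p = 0.0117). *Tgfbr2*, the ligand-binding receptor, was the nearest to the threshold among the genes that did not pass (log2 difference -0.19, SE 0.07, adjusted p = 0.0538). Its groups overlapped, with 7.82 to 8.10 in HFD-fed *Ogg1*-/- livers and 7.87 to 8.28 in HFD-fed WT livers. *Tgfbr2* passed on the HFD without replicate 1 of the chow-fed *Ogg1*-/- livers (limma, adjusted p = 0.0315).

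*Vim* (vimentin) had 9.04, 9.27 and 9.89 in HFD-fed *Ogg1*-/- livers against 9.49, 10.07 and 10.87 in HFD-fed WT livers (log2 difference -0.76, SE 0.25, adjusted p = 0.0351). *Pdgfra*, a PDGF receptor of mesenchymal cells, had 5.94, 6.02 and 6.19 in HFD-fed *Ogg1*-/- livers against 6.13, 6.40 and 6.69 in HFD-fed WT livers (log2 difference -0.37, SE 0.13, adjusted p = 0.0429). For both genes most *Ogg1*-/- livers lay below all WT livers of this diet. *Pdgfrb*, the PDGF receptor that is typical of stellate cells, differed by 0.05 (adjusted p = 0.869).

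When livers were left out in turn, *Lrat*, *Dcn*, *Tgfbr1* and *Hgf* passed in all 24 fits, and the other calls were less stable. *Tgfb1* lost its call without replicate 1, 2 or 5 of the HFD-fed *Ogg1*-/- livers or 1, 2, 4 or 6 of the HFD-fed WT livers (log2 difference 0.41 to 0.46, adjusted p = 0.0522 to 0.0794). The standard error pools all 4 groups, in which the SD of *Tgfb1* was 0.12 in HFD-fed *Ogg1*-/- and 0.15 in HFD-fed WT livers. It was 0.50 in chow-fed *Ogg1*-/- and 0.06 in chow-fed WT livers. Without replicate 1 of the chow-fed *Ogg1*-/- livers, *Tgfb1* passed on the HFD with an SE of 0.095 (limma, adjusted p = 0.00105). *Vim* lost its call without any of the HFD-fed *Ogg1*-/- livers but replicate 5, or without replicate 1, 4, 5 or 6 of the HFD-fed WT livers (-0.78 to -0.61, adjusted p = 0.0525 to 0.0993). *Pdgfra* lost it without any of the HFD-fed *Ogg1*-/- livers but replicate 4, without replicate 1, 4 or 6 of the HFD-fed WT livers or without replicate 2 of the chow-fed WT livers (-0.39 to -0.32, adjusted p = 0.0503 to 0.107).

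The promoters of 6 of these 7 genes are shown because the genes passed the test in the same comparison and the letters before their starts can then be set side by side. They are RefSeq windows on GRCm38.p6, from 250 bases before to 50 bases after the start, printed 5′ to 3′ on the strand of the gene. *Tgfbr1* and *Hgf* have 2 windows each, of which only the most upstream is printed and described. Capitals mark matches, on either strand, to the TATA box (TATAAA), the CCAAT box (CCAAT) and the GC box (GGGCGG). No matches overlap in these windows.
Lrat (chr3:82903925-82904224, minus strand): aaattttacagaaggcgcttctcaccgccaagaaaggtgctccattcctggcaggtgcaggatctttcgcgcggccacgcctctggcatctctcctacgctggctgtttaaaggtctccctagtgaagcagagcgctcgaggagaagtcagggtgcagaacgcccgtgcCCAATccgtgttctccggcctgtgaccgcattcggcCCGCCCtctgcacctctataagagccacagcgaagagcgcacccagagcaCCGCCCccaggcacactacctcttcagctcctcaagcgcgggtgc
Vim (chr2:13574061-13574360, plus strand): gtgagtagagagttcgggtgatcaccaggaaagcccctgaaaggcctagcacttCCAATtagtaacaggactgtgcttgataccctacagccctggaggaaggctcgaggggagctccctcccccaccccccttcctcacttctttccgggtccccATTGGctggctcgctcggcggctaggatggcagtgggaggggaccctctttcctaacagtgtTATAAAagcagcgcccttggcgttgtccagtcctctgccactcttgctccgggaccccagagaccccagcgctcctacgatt
Tgfbr1 (chr4:47352972-47353271, plus strand): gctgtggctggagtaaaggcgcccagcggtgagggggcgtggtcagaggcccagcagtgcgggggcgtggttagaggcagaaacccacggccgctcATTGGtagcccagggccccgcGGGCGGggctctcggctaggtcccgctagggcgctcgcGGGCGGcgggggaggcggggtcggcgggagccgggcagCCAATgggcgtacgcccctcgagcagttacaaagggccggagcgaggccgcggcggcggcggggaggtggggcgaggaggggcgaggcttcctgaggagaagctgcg
Hgf (chr5:16553245-16553544, plus strand): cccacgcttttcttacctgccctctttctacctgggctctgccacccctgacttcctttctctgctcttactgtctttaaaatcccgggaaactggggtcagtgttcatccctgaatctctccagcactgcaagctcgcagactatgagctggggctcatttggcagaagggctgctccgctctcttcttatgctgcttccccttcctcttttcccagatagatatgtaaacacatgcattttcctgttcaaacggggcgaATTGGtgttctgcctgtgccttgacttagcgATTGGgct
Pdgfra (chr5:75152001-75152300, plus strand): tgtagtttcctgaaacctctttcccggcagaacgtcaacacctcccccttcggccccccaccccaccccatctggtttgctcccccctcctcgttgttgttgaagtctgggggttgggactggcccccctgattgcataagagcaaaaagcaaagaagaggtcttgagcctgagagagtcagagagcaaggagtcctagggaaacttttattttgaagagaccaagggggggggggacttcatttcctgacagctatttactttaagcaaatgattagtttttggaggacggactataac
Tgfb1 (chr7:25686752-25687051, plus strand): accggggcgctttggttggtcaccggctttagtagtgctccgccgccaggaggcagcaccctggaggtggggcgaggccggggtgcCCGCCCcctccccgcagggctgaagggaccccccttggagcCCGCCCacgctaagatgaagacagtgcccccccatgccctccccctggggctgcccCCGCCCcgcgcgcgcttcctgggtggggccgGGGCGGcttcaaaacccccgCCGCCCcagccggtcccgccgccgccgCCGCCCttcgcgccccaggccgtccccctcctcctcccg
These windows differ in composition, with 51.0% to 77.0% G and C. *Tgfb1*, the gene that was higher, holds 6 GC boxes and 0 CCAAT boxes. Among the lower genes, *Lrat* holds 2 GC boxes and 1 CCAAT box, *Tgfbr1* 2 of each, *Vim* 2 CCAAT boxes and 1 TATA box, *Hgf* 2 CCAAT boxes and *Pdgfra* 0 matches. Windows were given for 26 of the 37 genes (29 windows, some genes having several). Of these, 19 hold a GC box (65.5%, against 35.7% of 32851 windows in the table), 12 a CCAAT box (41.4% against 37.4%) and 3 a TATA box (10.3% against 13.6%). The median G and C content was 60.3% in the windows of these genes and 52.7% in all windows, and the motif shares were not adjusted for it. A match is a description of the letters and not a binding site.

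The 11 collagen genes had log2 differences of -0.32 to 0.17 between genotypes on the HFD. The 5 fibrillar collagen genes, which form the banded fibres of scar tissue, had log2 differences of 0.01 to 0.16, and 0 passed. *Col1a1*, the major chain of type I collagen, had 7.55, 7.81 and 8.37 in HFD-fed *Ogg1*-/- livers against 7.25, 7.72 and 8.20 in HFD-fed WT livers (log2 difference 0.11, SE 0.15, adjusted p = 0.689). *Col3a1*, the chain of type III collagen, had 7.31, 7.41 and 7.80 in HFD-fed *Ogg1*-/- livers against 6.97, 7.42 and 7.79 in HFD-fed WT livers (log2 difference 0.02, SE 0.12, adjusted p = 0.935). The genotypes overlapped for both genes. Of the basement membrane collagen genes, *Col4a1* differed by -0.02 and *Col4a2* by 0.17 (adjusted p = 0.177), and of the type VI collagen genes, *Col6a1*, *Col6a2* and *Col6a3* differed by 0.10, 0.03 and -0.01. *Col14a1*, a collagen on the fibril surface, had the largest collagen difference, -0.32 (SE 0.15, adjusted p = 0.152).

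**Figure D2:**
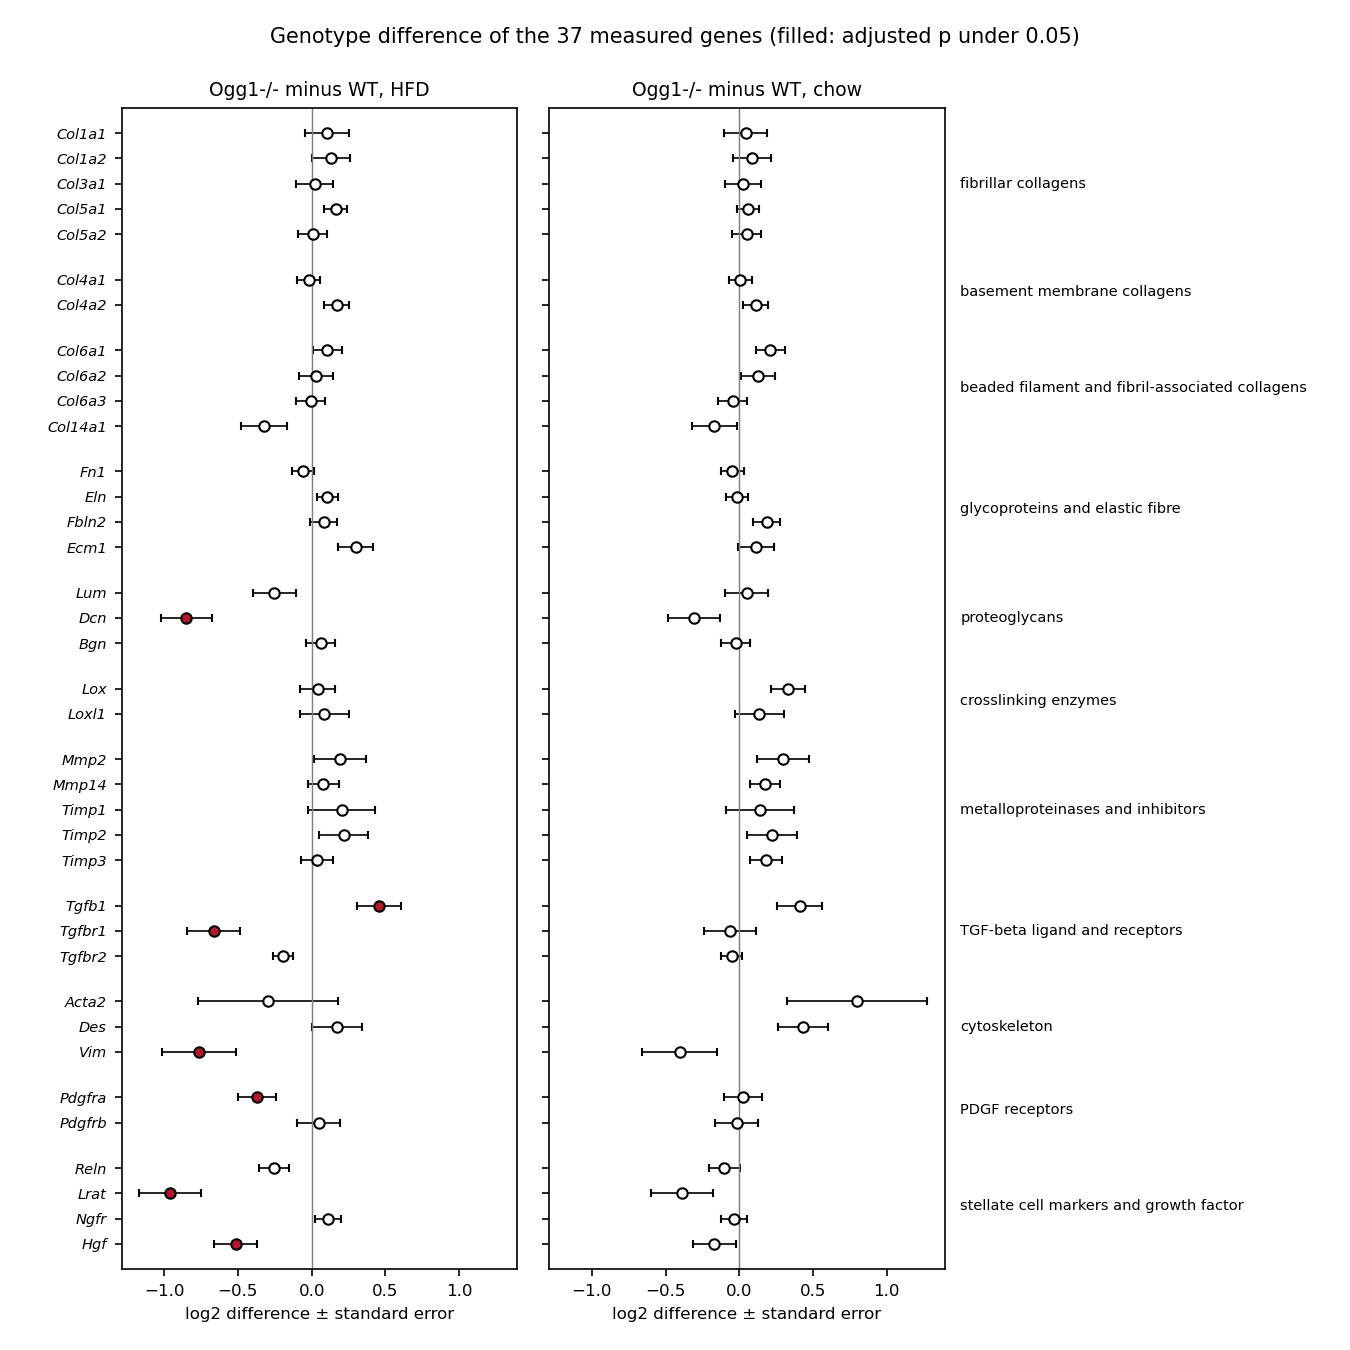
Log2 difference between *Ogg1*-/- and WT livers (horizontal axes, with standard error) of the 37 genes (vertical axis, grouped by role) on the HFD (left) and on chow (right); filled points have an adjusted p under 0.05. On the HFD 6 filled points lie below 0 and 1 above, and on chow 0 points are filled. The collagens lie between -0.32 and 0.17 on the HFD and between -0.17 and 0.21 on chow.

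Matrix enzymes and glycoproteins did not pass either. *Timp1*, an inhibitor of matrix metalloproteinases, ranged widely, with 4.92, 5.36 and 6.45 in HFD-fed *Ogg1*-/- livers against 4.54, 5.18 and 6.18 in HFD-fed WT livers (log2 difference 0.20, SE 0.23, adjusted p = 0.609). *Mmp2*, *Mmp14*, *Timp2* and *Timp3* had differences of 0.19, 0.08, 0.22 and 0.04, and the lysyl oxidases *Lox* and *Loxl1*, which crosslink collagen, of 0.04 and 0.08. *Ecm1*, a secreted matrix protein made by hepatocytes and stellate cells, came nearest among the glycoproteins (0.30, SE 0.12, adjusted p = 0.0823). Without replicate 1 of the chow-fed *Ogg1*-/- livers, *Ecm1* passed on the HFD (limma, adjusted p = 0.0268). *Fn1*, *Eln* and *Fbln2* (fibronectin, elastin and fibulin 2) differed by -0.06, 0.11 and 0.08. *Acta2*, smooth muscle actin and the usual mark of the activated stellate cell, had 6.83, 7.50 and 7.72 in HFD-fed *Ogg1*-/- livers against 7.11, 7.37 and 9.16 in HFD-fed WT livers (log2 difference -0.30, SE 0.47, adjusted p = 0.734). The value of 9.16 was that of WT replicate 3. The standard error pools all 4 groups, in which the SD of *Acta2* was 0.33 in HFD-fed *Ogg1*-/- livers, 0.78 in HFD-fed WT livers, 1.52 in chow-fed *Ogg1*-/- livers and 0.31 in chow-fed WT livers. *Des* (desmin) differed by 0.17 (adjusted p = 0.549). Over all 37 genes, the median log2 difference was 0.04 on the HFD, against 0.02 over all probe sets, and 12 genes had an unadjusted p under 0.05, 3 higher and 9 lower, where 31.5% of all probe sets did, 17.1% higher and 14.4% lower.

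On chow, 0 of the 37 genes differed between *Ogg1*-/- and WT livers, where 0.478% of all probe sets passed by limma. The methods' t-test also called 0, beside 0.0928% of all probe sets. An unadjusted p under 0.05 was found for 4 genes, all of them higher, and for 18% of all probe sets, with 9.77% higher. The smallest adjusted p values were those of *Lox* (log2 difference 0.33, adjusted p = 0.169), *Tgfb1* (0.41, adjusted p = 0.178) and *Des* (0.43, adjusted p = 0.194). *Tgfb1* had 7.43, 7.77 and 8.81 in chow-fed *Ogg1*-/- livers against 7.42, 7.50 and 7.57 in chow-fed WT livers, and the value of 8.81 was that of replicate 1. *Lrat* had 7.92, 8.63 and 9.21 in chow-fed *Ogg1*-/- livers against 8.63, 8.88 and 9.43 in chow-fed WT livers (log2 difference -0.39, adjusted p = 0.328). *Lrat* and *Tgfb1* thus had the same signs as on the HFD, without passing. The groups overlapped for all 37 genes on chow, where 1.06% of all probe sets did not overlap.

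*Col1a1* had 7.22, 7.44 and 7.90 in chow-fed *Ogg1*-/- livers against 7.36, 7.48 and 7.63 in chow-fed WT livers (log2 difference 0.04, adjusted p = 0.913). *Col3a1* had 6.94, 7.19 and 7.56 in chow-fed *Ogg1*-/- livers against 7.06, 7.20 and 7.34 in chow-fed WT livers (log2 difference 0.03, adjusted p = 0.94). *Timp1* had 4.76, 4.82 and 5.19 in chow-fed *Ogg1*-/- livers against 4.48, 4.76 and 4.96 in chow-fed WT livers (log2 difference 0.14, adjusted p = 0.793). All 3 overlapped, and without replicate 1 or 2 of the chow-fed *Ogg1*-/- livers the small differences of *Col1a1* and *Col3a1* turned negative, as did that of *Col3a1* without replicate 1 of the chow-fed WT livers. *Acta2* had 7.34, 7.61 and 11.25 in chow-fed *Ogg1*-/- livers against 7.07, 7.35 and 7.85 in chow-fed WT livers (log2 difference 0.80, SE 0.47, adjusted p = 0.379). The value of 11.25 belonged to replicate 2, and without that liver the difference was 0.19.

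Replicate 2 of the chow-fed *Ogg1*-/- livers stood apart in muscle genes. Its *Des* value was 8.01, against 6.13 to 6.97 in the other 23 livers. All 5 smooth muscle markers were above those 23 livers as well: *Myh11* (smooth muscle myosin) at 6.66 against at most 6.29, *Cnn1* (calponin) at 7.76 against at most 6.48, *Tagln* (transgelin) at 8.06 against at most 7.28, *Myl9* at 9.23 against at most 7.82 and *Actg2* at 6.94 against at most 5.57. *Col1a1* and *Col3a1* were not above all other livers. *Col1a1* was at 7.81 there, against 7.22 to 8.37 elsewhere, and *Col3a1* at 7.56, against 6.94 to 7.80. Both were above all chow-fed WT livers, which reached 7.63 for *Col1a1* and 7.34 for *Col3a1*. The mean of the smooth muscle markers was 5.98 to 6.31 in HFD-fed *Ogg1*-/- livers, 5.74 to 6.67 in HFD-fed WT livers, 5.77 to 7.73 in chow-fed *Ogg1*-/- livers and 5.90 to 6.07 in chow-fed WT livers. Other markers were high there too. The mean of the cholangiocyte markers was 6.68 in this liver and 6.64 in replicate 1 of its group, against at most 6.49 in the other groups. The mean of the portal fibroblast and mesothelial markers was 6.77 and 6.79 in these livers. It reached 6.54 in chow-fed WT, 6.48 in HFD-fed WT and 6.82 in HFD-fed *Ogg1*-/- livers. The part of smooth muscle or of these other cells in the *Acta2* and *Des* values was not tested.

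**Figure D3:**
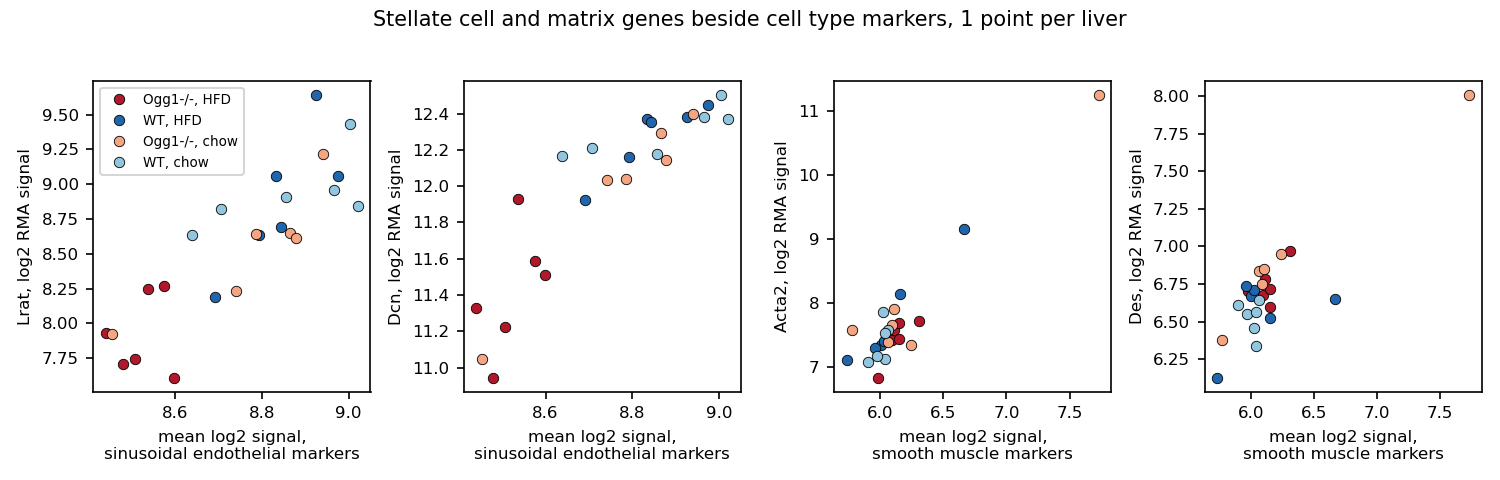
*Lrat* and *Dcn* against the mean log2 signal of 10 sinusoidal endothelial markers, and *Acta2* and *Des* against that of 5 smooth muscle markers (log2 RMA signal on both axes, 1 point per liver, coloured by group). The HFD-fed *Ogg1*-/- livers and replicate 1 of the chow-fed *Ogg1*-/- livers are low in endothelial markers, *Lrat* and *Dcn*. In the muscle panels, 1 chow-fed *Ogg1*-/- liver stands alone at the top right.

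The interaction test, which asks if the genotypes differed more on one diet than on the other, passed for 0 of the 37 genes by limma, where 0.00281% of all probe sets passed, and 3 genes had an unadjusted p under 0.05, all negative, where 6.88% of all probe sets did, 3.23% negative. The smallest p values were those of *Tgfbr1* (difference of log2 differences -0.60, adjusted p = 0.659), *Dcn* (-0.54, adjusted p = 0.698) and *Pdgfra* (-0.40, adjusted p = 0.698). The 7 calls on the HFD and 0 on chow are therefore not shown to differ between the diets. *Dcn* passed (-0.73, adjusted p = 0.0434, beside 1.52% of all probe sets) without replicate 1 of the chow-fed *Ogg1*-/- livers, in which *Dcn* was at 11.05 against 12.03 to 12.40 in the other 5 livers of its group.

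HFD-feeding in WT mice changed 0 of the 37 genes, where 0.925% of all probe sets passed. The smallest adjusted p values were those of *Fbln2* (log2 difference 0.26, adjusted p = 0.191), *Mmp2* (0.46, adjusted p = 0.249) and *Lox* (0.28, adjusted p = 0.285). *Mmp2*, gelatinase A, had 7.19, 7.55 and 7.77 in HFD-fed WT livers against 6.96, 7.08 and 7.20 in chow-fed WT livers, and passed when the 12 WT arrays were fitted alone (adjusted p = 0.0409). *Col1a1* and *Timp1* had differences of 0.28 (adjusted p = 0.412) and 0.51 (adjusted p = 0.328). The groups overlapped for all 37 genes, where 2.25% of all probe sets did not overlap. The methods' t-test also called 0, beside 1.08% of all probe sets. Positive differences were seen for 29 of the 37 genes and for 54.7% of all probe sets, with a median of 0.07 over the 37 genes and 0.02 over all probe sets. An unadjusted p under 0.05 was found for 7 genes, all higher, and for 13.4% of all probe sets, with 6.62% higher.

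**Figure D4:**
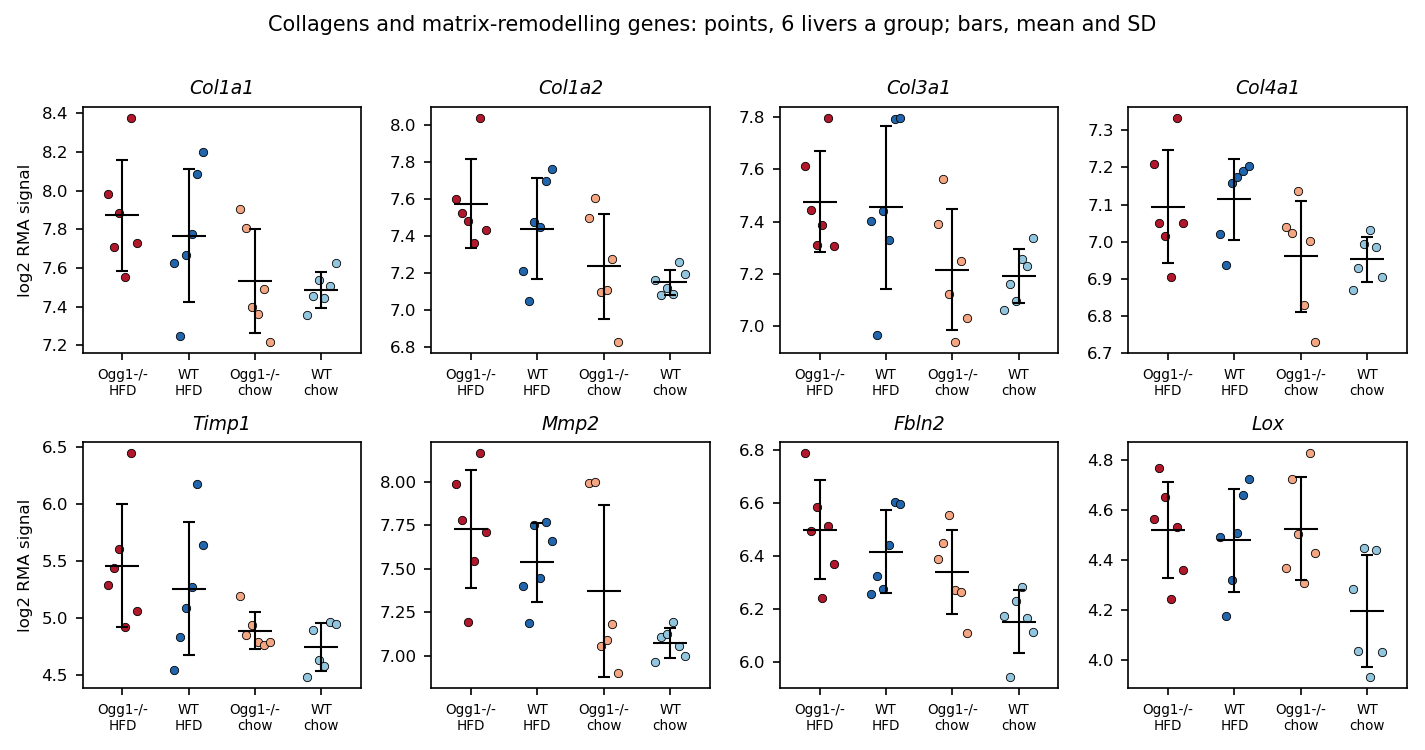
Log2 RMA signal (vertical axes) of 8 collagen and matrix-remodelling genes in the 6 livers of each group (points, groups along the horizontal axes), with mean and SD (bars). *Timp1* reaches 6.45 and 6.18 in single HFD-fed *Ogg1*-/- and WT livers, against at most 5.19 on chow, and the genotypes overlap for each gene.

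In *Ogg1*-/- mice, 4 of the 37 genes were lower (10.8%) and 0 higher on the HFD than on chow by limma, where 9.53% of all probe sets passed in either direction, 4.58% higher and 4.94% lower. *Tgfbr2* had 7.82, 7.94 and 8.10 in HFD-fed *Ogg1*-/- livers against 8.04, 8.25 and 8.34 in chow-fed *Ogg1*-/- livers (log2 difference -0.28, SE 0.07, adjusted p = 0.0156). *Hgf* had 6.52, 6.70 and 7.12 in the HFD-fed livers against 6.87, 7.31 and 7.56 in the chow-fed livers (-0.51, SE 0.15, adjusted p = 0.0315), and *Pdgfra* 5.94, 6.02 and 6.19 in the HFD-fed livers against 6.07, 6.45 and 6.97 in the chow-fed livers (-0.43, SE 0.13, adjusted p = 0.0364). *Dcn* had 10.95, 11.42 and 11.93 in the HFD-fed livers against 11.05, 12.09 and 12.40 in the chow-fed livers (-0.57, SE 0.17, adjusted p = 0.0403). All 4 overlapped between the diets, as did the other 33 genes, where 2.4% of all probe sets did not overlap. With a fold of at least 1.5 as well, 0 of the 37 genes passed, beside 3.11% of all probe sets. Unadjusted, 11 genes had a p under 0.05, 5 higher and 6 lower, where 25.3% of all probe sets did, 12.8% higher and 12.4% lower. The methods' t-test called 1 gene, beside 1.62% of all probe sets. A fit of the 12 *Ogg1*-/- arrays alone called 0, beside 2.71%, and a fit with the axis covariate 0, beside 4.76%. *Tgfbr1* (-0.55, adjusted p = 0.0518) and *Lrat* (-0.63, adjusted p = 0.0578) lay just outside the threshold. This comparison and the one between genotypes on the HFD share the 6 HFD-fed *Ogg1*-/- livers, so their calls are not independent.

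This count depended on single livers. Without replicate 1 of the chow-fed *Ogg1*-/- livers, 12 genes passed, beside 25.4% of all probe sets. Then *Dcn*, *Lrat*, *Tgfbr1*, *Hgf*, *Pdgfra* and *Tgfbr2* were lower in HFD-fed *Ogg1*-/- livers, and *Col1a1* (0.42, adjusted p = 0.041), *Col1a2* (0.39, adjusted p = 0.0353), *Col5a1* (0.24, adjusted p = 0.0101), *Mmp2* (0.48, adjusted p = 0.0376), *Tgfb1* (0.45, adjusted p = 0.00194) and *Ngfr* (0.22, adjusted p = 0.0375) were higher. With all 24 livers, *Col1a1* differed by 0.34 (adjusted p = 0.141), *Col1a2* by 0.34 (adjusted p = 0.102) and *Timp1* by 0.57 (adjusted p = 0.113). Without replicate 2, 5 or 6 of the chow-fed or 1, 2 or 6 of the HFD-fed *Ogg1*-/- livers, 1 gene passed, beside 3.8% to 6.59% of all probe sets, and without chow-fed replicate 4, 2 passed, beside 5.93%. *Tgfbr2* passed in all 24 such fits. *Hgf* lost its call in 8 of them (adjusted p up to 0.0909), *Pdgfra* in 8 (up to 0.112) and *Dcn* in 9 (up to 0.117), among them those without chow-fed replicate 2, 5 or 6 or HFD-fed replicate 1, 2 or 6.

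The 37 genes did not vary equally within groups. The SD pooled over the 4 groups was 0.22 at the median, 0.88 for *Acta2*, 0.47 for *Vim* and 0.42 for *Timp1*, and down to 0.11 for *Tgfbr2*. The median SD was 0.19 in HFD-fed *Ogg1*-/- livers, 0.20 in HFD-fed WT livers, 0.26 in chow-fed *Ogg1*-/- livers and 0.14 in chow-fed WT livers. Some livers were high or low in many genes at a time. Replicate 5 was the highest of the 6 HFD-fed *Ogg1*-/- livers in 18 of the 37 genes, replicate 2 the lowest of the HFD-fed WT livers in 23, and replicate 6 the lowest of the chow-fed *Ogg1*-/- livers in 19. Replicate 1 of the chow-fed *Ogg1*-/- livers was the highest of its group in 14 genes and the lowest in 9. The mean over the 37 genes was 7.66 to 7.94 in HFD-fed *Ogg1*-/- livers and 7.54 to 7.97 in HFD-fed WT livers, and 7.54 to 8.06 in chow-fed *Ogg1*-/- livers and 7.63 to 7.81 in chow-fed WT livers, so it overlapped between all groups. No detection calls were used here.

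**Figure D5:**
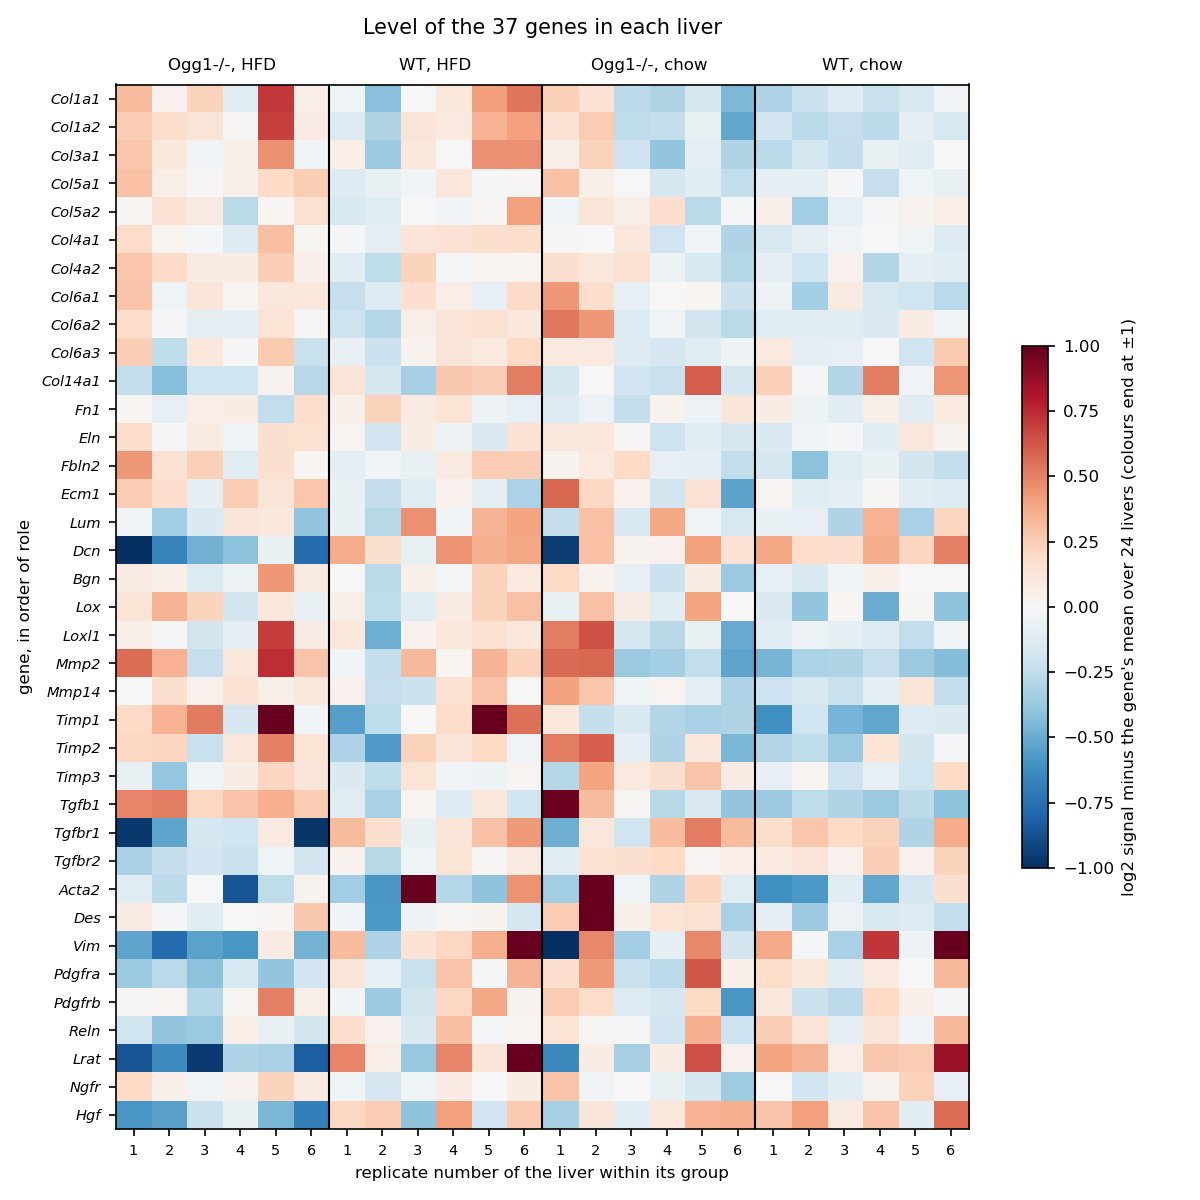
Log2 signal of the 37 genes (vertical axis, in order of role) in the 24 livers (horizontal axis, by group and replicate), each gene centred on its mean (colour scale in log2, ending at ±1). *Dcn*, *Lrat*, *Tgfbr1* and *Hgf* are low in most HFD-fed *Ogg1*-/- livers, and replicate 1 of the chow-fed *Ogg1*-/- livers is low in the same 4 genes.

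Other genes of the same pathway were examined on the HFD from lists, whose counts stand against the 19.8% of all probe sets that passed. Of 32 measured TGF-beta signalling genes, 4 were higher and 8 lower in *Ogg1*-/- livers, with a median of 0.02. The largest changes were in the bone morphogenetic protein receptors *Bmpr1a* (-0.88, adjusted p = 0.00913) and *Bmpr2* (-0.71, adjusted p = 0.0066), the ubiquitin ligase *Smurf2* (-0.68, adjusted p = 0.0149) and the target gene *Id1* (0.59, adjusted p = 0.0467). Of 17 further genes of quiescent stellate cells, 5 were higher and 6 lower, with *Pparg*, a nuclear receptor of lipid-storing cells (-0.78, adjusted p = 0.014), *Plin2*, a coat protein of lipid droplets that hepatocytes also use (-0.74, adjusted p = 0.00534), *Colec10* (-0.57, adjusted p = 0.00518) and *Tmem56* (-0.51, adjusted p = 0.0042) changed most. Of 21 further genes of activated stellate cells and myofibroblasts, 0 were higher and 1 lower, the cadherin *Cdh11* (-0.34, adjusted p = 0.0124). With the axis score as a covariate, 2 TGF-beta signalling genes passed, both lower, and 0 genes of either stellate list passed, beside 2.71% of all probe sets.

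Of 20 genes that process or export collagen, 3 were higher and 2 lower. These included the lysyl hydroxylases *Plod3* (0.38, adjusted p = 0.0148) and *Plod1* (0.37, adjusted p = 0.00526), the prolyl hydroxylase subunit *P4ha1* (-0.30, adjusted p = 0.0422) and *Sec23a* (-0.62, adjusted p = 0.0103), part of the coat of vesicles that leave the endoplasmic reticulum. Of 31 other collagen and matrix genes, 1 was higher, *Agrn* (0.29, adjusted p = 0.00526), and 2 were lower, *Spon2* (-0.75, adjusted p = 0.0123) and *Efemp1* (-0.54, adjusted p = 0.0429). Of 22 other matrix proteases and inhibitors, 0 were higher and 3 lower, the membrane sheddases *Adam17* (-0.74, adjusted p = 0.00207) and *Adam10* (-0.63, adjusted p = 0.00839), and *Adamts5* (-0.38, adjusted p = 0.0149). Of 19 matrix receptors, 3 were higher and 5 lower, with the syndecan *Sdc1* (0.61, adjusted p = 0.00082) and the integrin subunits *Itga1* (-0.59, adjusted p = 0.00816), *Itgav* (-0.52, adjusted p = 0.00337) and *Itga8* (-0.52, adjusted p = 0.0321) changed most. *Itgav* was also counted among the TGF-beta signalling genes above. On chow, 0 genes of these lists passed, beside 0.478% of all probe sets; the nearest were *Ilk* (0.39, adjusted p = 0.103) among the receptors and *Mmp9* (0.33, adjusted p = 0.105) among the proteases.

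Cell type markers were counted on the HFD by the same test, which passed 19.8% of all probe sets, 10.3% higher and 9.55% lower. With probe sets of below-median mean signal left out, it passed 43%. These shares stand beside the counts of the next paragraph as well. Of 13 measured markers of quiescent stellate cells, 8 of which belong to the 37 genes, 4 were lower in HFD-fed *Ogg1*-/- livers (*Lrat*, *Dcn*, *Colec10* and *Hgf*) and 2 higher, the transcription factors *Hand2* (0.34, adjusted p = 0.0206) and *Lhx2* (0.30, adjusted p = 0.04). *Colec10*, *Hand2* and *Lhx2* were also counted among the further quiescent stellate genes above, so these lists overlap. The mean of these markers was 8.18 to 8.46 in HFD-fed *Ogg1*-/- livers and 8.30 to 8.61 in HFD-fed WT livers, which overlapped. Of 10 sinusoidal endothelial markers, 5 were lower and 1 higher, with *Tek* (-0.73, adjusted p = 0.00488), *Kdr* (-0.60, adjusted p = 0.00819), *Clec4g* (-0.52, adjusted p = 0.00519) and *Gpr182* (0.56, adjusted p = 0.00244) changed most. Their mean was 8.44 to 8.60 in HFD-fed *Ogg1*-/- livers and 8.69 to 8.97 in HFD-fed WT livers, with no overlap, and 8.45 to 8.94 in chow-fed *Ogg1*-/- livers and 8.64 to 9.02 in chow-fed WT livers. *Lrat*, *Dcn* and this mean were low in HFD-fed *Ogg1*-/- livers and in replicate 1 of the chow-fed *Ogg1*-/- livers, as the plot beside cell type markers shows. Within groups, the mean, *Dcn* and *Lrat* were lowest together in some livers but not in all groups. Replicate 3 of the chow-fed WT livers was the lowest of its group in the mean (8.64), *Dcn* (12.17) and *Lrat* (8.63). Replicate 3 of the HFD-fed WT livers was also the lowest of its group in each (8.69, 11.93 and 8.19). Of the HFD-fed *Ogg1*-/- livers, replicate 3 had the highest mean (8.60) and the lowest *Lrat* (7.61). The part of endothelial RNA or of the axis in the *Lrat* and *Dcn* values was not tested.

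Of 8 Kupffer cell markers, *Cd5l* was higher (0.43, adjusted p = 0.026) and *Vsig4* (-0.85, adjusted p = 0.00164) and *Clec4f* (-0.22, adjusted p = 0.0321) were lower, and their mean was 8.39 to 8.49 in HFD-fed *Ogg1*-/- livers and 8.42 to 8.68 in HFD-fed WT livers. Of 7 hepatocyte markers, 1 passed, *Asgr1* (0.41, adjusted p = 0.00342), and their mean was 13.20 to 13.30 in HFD-fed *Ogg1*-/- livers and 13.17 to 13.34 in HFD-fed WT livers. Of 5 lymphocyte markers, *Nkg7* was higher (0.42, adjusted p = 0.0335) and *Ms4a1* lower (-0.37, adjusted p = 0.0347). The markers of cholangiocytes, of portal fibroblasts and mesothelium, and of smooth muscle included 0 that passed, with *Sox9* (0.12, adjusted p = 0.499), *Gli1* (0.15, adjusted p = 0.195) and *Tagln* (0.08, adjusted p = 0.844) nearest. Of 8 measured reference genes, which are used because most cells express them evenly, *Hprt* was higher (0.50, adjusted p = 0.00074) and *Tbp* lower (-0.47, adjusted p = 0.0085).

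Between the diets in *Ogg1*-/- livers, 5 of the 32 TGF-beta signalling genes were lower on the HFD and 0 higher, where 4.94% of all probe sets were lower and 4.58% higher. Among them, *Bmpr2* (-0.60, adjusted p = 0.0296), *Acvr2a* (-0.53, adjusted p = 0.000979), *Smad3*, a transcription factor that TGF-beta receptors activate (-0.49, adjusted p = 0.000924), and *Itgav* (-0.37, adjusted p = 0.0321) changed most. Of the collagen processing genes, *Pcolce2* (0.37, adjusted p = 0.0128) and *Plod1* (0.32, adjusted p = 0.0208) were higher and *Mia3*, which loads collagen into transport vesicles (-0.53, adjusted p = 0.045), was lower. Of the matrix genes, *Ogn* was lower (-0.74, adjusted p = 0.025) and *Agrn* higher (0.34, adjusted p = 0.00372), and of the sinusoidal endothelial markers 4 were lower, among them *Tek* (-0.61, adjusted p = 0.0217) and *Kdr* (-0.55, adjusted p = 0.0247). Of the 13 quiescent stellate markers, *Dcn*, *Hgf* and *Colec10* (-0.51, adjusted p = 0.0172) were lower and 0 higher. Of the further quiescent stellate genes, *Rdh10* was higher (0.48, adjusted p = 0.00804) and *Colec10* lower. Among the further activated stellate genes only *Tpm2* passed, higher (0.47, adjusted p = 0.0391). Of the 19 matrix receptors, 2 were higher and 2 lower, and of the other proteases only *Adam17* passed, lower (-0.57, adjusted p = 0.0132). In WT livers, 0 genes of the matrix, stellate cell and TGF-beta lists passed between the diets, beside 0.925% of all probe sets.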

How the data were processed

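Total RNA from whole livers of 24 mice was hybridized to the array, 1 array per mouse, in 4 groups of 6. The authors made the deposited values by robust multiarray averaging (RMA), as their processing notes state, so that each probe set has a log2 signal in each liver (1.81 to 14.8 over the whole table). A version and the genome build of the array annotation are not given in the sources used here. Symbols came from the platform table, in which 21789 probe sets have 1 symbol, 1621 several and 12146 are not named here. Correlations between arrays were 0.952 to 0.993, and 0 pairs were identical. No label says that replicates were other than separate mice.

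All 35556 probe sets were fitted to the 4 group means by the lmFit and eBayes functions of limma 3.58.1 (R 4.3.3) without a filter, and p values were adjusted by Benjamini-Hochberg over all probe sets. A gene was called at an adjusted p under 0.05. The study's methods name limma and a t-test, and the methods' t-test served as an alternative. The script was tested on simulated data. All called genes are named, or the 3 with the smallest p where 0 were called, and *Col1a1*, *Col3a1*, *Acta2*, *Timp1*, *Tgfb1* and *Lrat* in any case. Of each other list, up to 4 called genes with the largest change are named, or the 1 with the smallest p. The genes, the lists and the axis covariate were chosen with earlier results of these data known. Counts of the 37 genes under the main test stand beside the share of all probe sets called by the same rule. Promoter windows came from RefSeq, and motifs were matched with Python 3.11.15. Array signals carry no counts, and the number of arrays and the spread between livers limit the precision.

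Alternatives were array weights, centring on array medians or on reference genes, quantile normalization, a filter on dim probe sets, a prior with a trend, the 12 arrays of a comparison alone, the methods' t-test, a replicate block, the axis score or the ending of the sample code as a covariate, the mean over probe sets of a gene, a fold of at least 1.5, and leaving out each liver in turn.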

Additional observations from a re-analysis of the deposited data

Results flagged for a closer look

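Within the 148 sets of 6 livers (37 genes in 4 groups), 15 had a liver far from the other 5 by Dixon's test. The nominal rate of this test, for independent sets of normal values, is about 1 in 20. These sets share the same livers, and the share over all probe sets was not computed, so the count does not show an excess in these genes. In HFD-fed *Ogg1*-/- livers, replicate 5 was high in *Col1a2* (8.04, against 7.37 to 7.60 in the other 5), *Loxl1* (7.11) and *Vim* (9.89), and replicate 4 was low in *Col5a2* (5.59) and *Acta2* (6.83). In HFD-fed WT livers, replicate 6 was high in *Col5a2* (6.27), and replicate 2 was low in *Loxl1* (5.93) and *Des* (6.13). In chow-fed *Ogg1*-/- livers, replicate 2 was high in *Acta2* (11.25) and *Des* (8.01), replicate 1 was low in *Dcn* (11.05), and replicate 5 was high in *Col14a1* (9.35). In chow-fed WT livers, low values were those of *Col5a1* in replicate 4 (6.65), *Col5a2* in replicate 2 (5.52) and *Tgfbr1* in replicate 5 (7.60). The interaction of genotype and diet passed for 0 of the 37 genes.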

How the results depend on the processing

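On chow, 0 of the 37 genes were called between genotypes under all 13 alternatives and without any 1 of the 24 livers. Under these alternatives 0.045% to 1.69% of the probe sets or genes tested passed. On the HFD, the main count of 7 became 0 with the axis covariate (beside 2.71% of all probe sets) and 4 with a fold of at least 1.5 as well (*Lrat*, *Dcn*, *Vim* and *Tgfbr1*, all lower, beside 5.89% of all probe sets), lay between 5 and 10 under the other 11 alternatives (beside 17.4% to 43%), and was 4 to 9 when livers were left out in turn. It was 4 without replicate 1 or 2 of the HFD-fed *Ogg1*-/- livers or replicate 1, 4 or 6 of the HFD-fed WT livers, beside 13.7% to 15.4%. With the axis covariate the 7 differences kept their signs, with -0.61 for *Lrat* (adjusted p = 0.107), -0.45 for *Dcn* (adjusted p = 0.0616), -0.38 for *Vim*, -0.32 for *Pdgfra*, -0.29 for *Tgfbr1*, -0.21 for *Hgf* and 0.065 for *Tgfb1* (adjusted p = 0.259 to 0.738 for the last 5). *Tgfb1* and *Pdgfra* also lost their calls with centring on reference genes (0.48, adjusted p = 0.0539, and -0.35, adjusted p = 0.089), *Pdgfra* with quantile normalization (-0.34, adjusted p = 0.0538) and *Vim* with the sample code covariate (-0.75, adjusted p = 0.0537), where the main differences were 0.46 for *Tgfb1*, -0.37 for *Pdgfra* and -0.76 for *Vim*.

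Between the diets in *Ogg1*-/- livers, the main count of 4 became 12 with array weights (6 higher, 6 lower, beside 23% of all probe sets), 0 with the 12 arrays alone (2.71%), 1 with the methods' t-test (1.62%), 0 with the axis covariate (4.76%) and 0 with a fold of at least 1.5 as well (3.11%), and was 1 to 12 when livers were left out. In WT livers it became 1 (*Mmp2*) with the 12 arrays alone, beside 1.32% of all probe sets. The interaction count was 0 to 1 when livers were left out and 0 under the other alternatives. *Col1a1* on chow changed sign with array weights (-0.013) and the axis covariate (-0.091), as did *Col3a1* (-0.0056 and -0.054), and on the HFD both changed sign with the axis covariate (-0.082 for *Col1a1*, -0.089 for *Col3a1*). When livers were left out, *Col1a1* on chow was -0.032 to 0.11, *Col3a1* on chow -0.044 to 0.081 and *Col3a1* on the HFD -0.075 to 0.090. The cause of these changes was not tested.

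Replicate numbers of the labels were not treated as pairs, since correlations of residuals over 36 pairs of groups and replicates were -0.27 to 0.43 with a median of -0.03. With the replicate block, the genotype comparison called 7 genes on the HFD (beside 19.7% of all probe sets) and 0 on chow (0.385%). In the same fit the interaction called 0 (0.00281%), and the diet comparison 5 in *Ogg1*-/- livers (9.49%) and 0 in WT livers (0.776%).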
